A study of Mus musculus with 6 samples.

Results

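The 10 genes followed here are known in the mouse as imprinted regulators of growth: the growth factor gene Igf2, its clearance receptor gene Igf2r, Dlk1, Mest, the zinc-finger genes Peg3, Plagl1 and Zdbf2, and the growth-restraining genes Cdkn1c, Grb10 and Ndn. They were found by name among the 18305 genes of each table, by matching NCBI gene numbers to mouse symbols. All 10 were present, and all 10 had enough reads to be tested. RNA sequencing on a BGISEQ instrument gave 6 libraries of cultured cells from the KM strain of mouse, 2 in each of 3 groups. MEF were untreated fibroblasts from embryos of 12.5 or 13.5 days post coitum, at passages 3 to 5. CiLC were MEF of the same passages that received small molecules from 24 h after seeding, to turn them into cells like Leydig cells (the sources used here do not name the molecules). LC were Leydig cells, the testosterone-making cells of the testis, taken from testis tissue and used at passages 0 to 1. The study asked whether CiLC resemble Leydig cells in their gene expression. MEF and LC differed in organ and passage as well as in cell type, and the sources used here do not state the age of the LC donors, so these differences cannot be told apart.

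An imprinted gene is transcribed mainly from the copy inherited from a single parent, because DNA methylation laid down in the germ line marks the parental copies differently. Many imprinted genes act in a network that sets the growth of the fetus and placenta, and many of them are switched down in most tissues after birth. Igf2r, Cdkn1c and, in most tissues, Grb10 are transcribed from the maternal copy, and the other members from the paternal copy. The counts do not separate the parental copies, and DNA methylation was not measured.

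Every library held between 18442442 and 18944320 estimated reads, and 16441 to 16631 genes were above 0. Levels are given in CPM (counts-per-million, from estimated reads after scaling of the library sizes), and tests are edgeR's quasi-likelihood test with Benjamini-Hochberg adjustment over the 14581 genes with enough reads; a gene was called at an adjusted p under 0.05. Of 7 Leydig cell markers, the summed level was 1081 to 1109 CPM in LC, 144 to 148 in CiLC and 7.55 to 9.4 in MEF. The CiLC sum came mainly from Star (mean 58 CPM) and Nr5a1 (69), and the LC sum mainly from Cyp11a1 (705, against 12.3 in CiLC). Star, Cyp11a1, Hsd3b1 and Nr5a1 were called higher in CiLC than in MEF. Insl3 did not pass, at 0.558 CPM in CiLC and 0.963 in MEF (adjusted p = 0.406). Star, Cyp11a1 and Nr5a1 were well measured in LC, but Cyp17a1 (mean 0.0294 CPM) and Lhcgr (mean 0.146 CPM), which define mature Leydig cells, were near 0 there, and Lhcgr was at 0 in both CiLC libraries. Fibroblast markers summed to 27139 to 30003 CPM in all 6 libraries, but single markers differed: Thy1 averaged 395 CPM in MEF against 817 in CiLC and 5.73 in LC, Pdgfra was 5.91-fold higher in LC than in MEF, and Col1a1 was 1.82-fold lower in CiLC than in MEF.

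The promoter windows of the members were read from the RefSeq annotation of build GRCm38.p6, from 250 bases before to 50 bases after a transcription start. The counts themselves were made on build mm9, so the windows identify the genes and carry no reads. RefSeq windows were found for 9 of the 10 members, 16 windows in all, and not for Cdkn1c. Shown are the windows of the 3 members that rose most from MEF to CiLC and of the only member that fell, taking for each gene its window with the most CpG sites. Each is written 5′ to 3′ on the gene's own strand: Dlk1 at chr12:109452573-109452872 (plus strand), Mest at chr6:30737800-30738099 (plus), Plagl1 at chr10:13090582-13090881 (plus) and Grb10 at chr11:12037371-12037670 (minus). Capitals mark TGCCGC or its reverse complement GCGGCA, the hexamer recognised, when methylated, by ZFP57, a zinc-finger protein that protects imprints in the early embryo.
Dlk1: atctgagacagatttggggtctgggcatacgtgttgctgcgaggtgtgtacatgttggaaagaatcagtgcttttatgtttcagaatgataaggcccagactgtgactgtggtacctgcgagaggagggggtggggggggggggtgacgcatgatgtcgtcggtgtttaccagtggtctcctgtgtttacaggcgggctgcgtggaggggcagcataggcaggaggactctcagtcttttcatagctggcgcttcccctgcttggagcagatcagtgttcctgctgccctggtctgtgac
Mest: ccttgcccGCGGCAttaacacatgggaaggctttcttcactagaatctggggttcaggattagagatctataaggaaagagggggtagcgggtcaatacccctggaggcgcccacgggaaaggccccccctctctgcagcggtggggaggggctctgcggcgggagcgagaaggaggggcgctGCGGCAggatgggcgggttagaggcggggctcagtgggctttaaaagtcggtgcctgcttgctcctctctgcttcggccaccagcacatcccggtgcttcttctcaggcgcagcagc
Plagl1: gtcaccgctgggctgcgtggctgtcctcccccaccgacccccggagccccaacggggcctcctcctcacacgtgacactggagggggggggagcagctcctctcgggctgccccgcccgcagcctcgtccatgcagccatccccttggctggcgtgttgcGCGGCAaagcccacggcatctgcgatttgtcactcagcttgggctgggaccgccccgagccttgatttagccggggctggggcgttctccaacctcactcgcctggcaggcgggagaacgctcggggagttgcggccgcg
Grb10: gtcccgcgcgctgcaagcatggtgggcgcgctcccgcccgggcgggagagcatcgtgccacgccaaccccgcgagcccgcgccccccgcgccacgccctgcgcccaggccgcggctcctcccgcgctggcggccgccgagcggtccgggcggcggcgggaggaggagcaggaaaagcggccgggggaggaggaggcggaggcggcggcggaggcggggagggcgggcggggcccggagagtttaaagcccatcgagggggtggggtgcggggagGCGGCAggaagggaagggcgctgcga

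The 4 windows ranged widely in CpG content. The Dlk1 window held 9 CpG sites at 55.7% GC, near the medians of 7 sites and 52.7% over all 32851 mouse windows, whereas the Grb10 window held 45 sites at 80.0% GC. The Mest window held 17 CpG sites and the Plagl1 window 26. The hexamer, searched on both strands, was present in 6 of the 16 member windows, belonging to Grb10, Igf2, Mest, Plagl1 and Zdbf2, against 11.6% of all windows; the pair of Mest windows that hold it overlap almost entirely. It stood in the printed windows both of genes that rose in CiLC and of Grb10, which fell. GGGGCCCC, the core read by the PLAGL1 protein itself, was in 1 member window, that of Peg3, against 1.08% of all windows. GCCAT, the core of the YY1 motif, was in 4 member windows against 40.5% of all windows. These matches describe letters in the windows and say nothing of binding or methylation in these cells.

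All 10 members differed between every pair of groups, and in 9 of them the order was the same: highest in CiLC, then MEF, then LC. Between CiLC and MEF, 9 members rose and 1, Grb10, fell; over all tested genes 51.6% were called, 26.1% higher and 25.5% lower. Between LC and MEF all 10 were lower in LC, where 70.7% of all tested genes were called, 35.7% higher and 35% lower. Between CiLC and LC all 10 were higher in CiLC, where 70.6% of tested genes were called, 35% higher and 35.6% lower. The median log2 difference of the members was 0.47 for CiLC over MEF, -3.18 for LC over MEF and 3.87 for CiLC over LC, beside medians over all tested genes of 0.01, -0.01 and 0.0. The 3 comparisons share libraries, so they are not independent of each other. The replicate libraries were close, with a common coefficient of variation of 3.16%. When a coefficient of variation of 0.4 was assumed instead, none of the 10 calls between CiLC and MEF was kept, against 8 of 10 in each of the other comparisons. In bulk RNA, a change in the share of cells that express a gene and a change in the RNA per cell cannot be told apart.

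**Figure D1:**
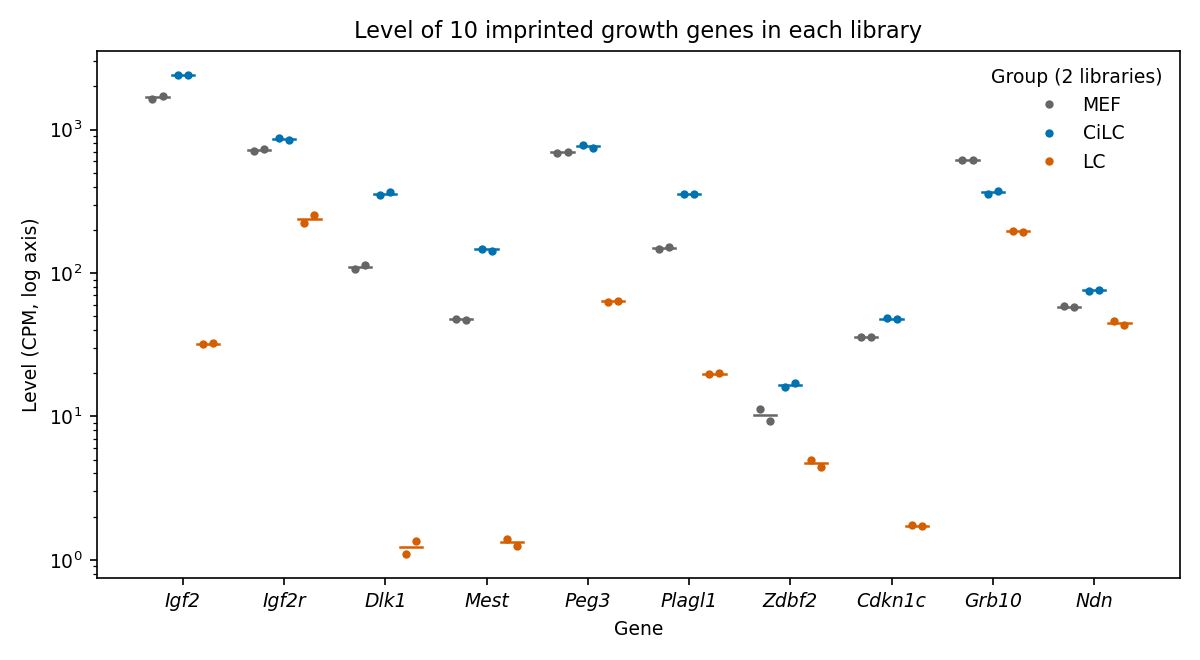
Level of each of the 10 genes (CPM, log axis) in each of the 6 libraries; points are libraries and short lines are means of the 2 libraries of MEF (grey), CiLC (blue) or LC (orange). In every gene the 3 groups are separated without overlap, LC is lowest, and Grb10 is the gene whose MEF libraries stand above CiLC.

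Together the members took 0.574% of the reads in both CiLC libraries, 0.414% and 0.424% in the MEF libraries, and 0.0545% and 0.0561% in the LC libraries. The part that came from Igf2 differed between the groups. It supplied 44.3% and 44.8% of the members' reads in CiLC, 40.4% and 41.2% in MEF, and 5.39% and 5.3% in LC.

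Igf2 encodes a secreted growth factor that drives growth of the fetus and placenta through the IGF1 and insulin receptors. Its level was 1635 and 1723 CPM in the MEF libraries, 2384 and 2411 CPM in CiLC, and 31.8 and 32.4 CPM in LC. LC stood far below both other groups, and the CiLC libraries lay above both MEF libraries. The rise from MEF to CiLC was 1.43-fold (log2 0.51 ± 0.0452 SE, adjusted p = 1.4e-09), and the level in LC was 52.2-fold lower than in MEF (log2 -5.71 ± 0.0614 SE, adjusted p = 6.99e-27). CiLC exceeded LC 74.6-fold (adjusted p = 9.94e-27). All 6 values of Igf2 were fractional in the deposited tables, and the counting method behind such values is not known here.

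Igf2r encodes the receptor that takes IGF2 from the cell surface to the lysosome and so removes it. Its levels were 709 and 728 CPM in MEF, 870.4 and 846 in CiLC, and 223 and 252 in LC. The receptor therefore followed the same order as its ligand, over a narrower range. CiLC was 1.19-fold above MEF (log2 0.26 ± 0.0504 SE, adjusted p = 0.000168) and LC 3.03-fold below MEF (log2 -1.60 ± 0.0533 SE, adjusted p = 6.46e-18).

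Dlk1 encodes a transmembrane protein of the Notch ligand family that restrains differentiation of fat cells and marks progenitor cells, among them fetal Leydig cells. It was read at 107 and 113 CPM in MEF, 347 and 364 CPM in CiLC, and 1.1 and 1.35 CPM in LC, the last from only 19 and 23 reads. Of the 10 members it had the widest range. It rose 3.23-fold from MEF to CiLC (log2 1.69 ± 0.0492 SE, adjusted p = 2.15e-18) and was 89.1-fold lower in LC than in MEF (log2 -6.48 ± 0.113 SE, adjusted p = 3.23e-23). Between CiLC and LC the difference was 288-fold (log2 8.17 ± 0.0982 SE, adjusted p = 7.46e-26), and 55 of the 14581 tested genes had a larger one in that direction.

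Mest encodes an enzyme-like membrane protein of the mesoderm that enlarges fat cells and is needed for normal fetal growth. Its level was 47.6 and 47.2 CPM in MEF, 148 and 143 in CiLC, and 1.4 and 1.25 in LC. As for Dlk1, CiLC stood well above MEF while LC held little more than 1 CPM. The rise in CiLC was 3.08-fold (log2 1.62 ± 0.0513 SE, adjusted p = 1.01e-17) and the level in LC 35.9-fold lower than in MEF (log2 -5.17 ± 0.12 SE, adjusted p = 5.87e-21). All 6 values of Mest were fractional too.

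Of the zinc-finger members, Plagl1 and Peg3 encode regulators of transcription. Plagl1, a DNA-binding protein known to act on other imprinted genes, was at 148 and 151 CPM in MEF, 353 and 354 in CiLC, and 19.7 and 20.2 in LC. It rose 2.36-fold in CiLC (log2 1.24 ± 0.0449 SE, adjusted p = 1.17e-16) and was 7.51-fold lower in LC than in MEF (log2 -2.91 ± 0.0612 SE, adjusted p = 9.5e-22). Its 2 libraries within a group were nearly alike, with an SD of 0.566 CPM around 354 in CiLC (n = 2). Peg3, which encodes a large zinc-finger repressor, was at 684 and 702 CPM in MEF, 785 and 746 in CiLC, and 63.1 and 63.8 in LC. Its difference between CiLC and MEF was the smallest of the 10, 1.10-fold (log2 0.14 ± 0.0447 SE, adjusted p = 0.00971). It was no longer called without CiLC replicate 1 (adjusted p = 0.185) or without MEF replicate 1 (adjusted p = 0.0683). In LC, Peg3 was 10.9-fold lower than in MEF (log2 -3.45 ± 0.0537 SE, adjusted p = 3.94e-24). Zdbf2, a zinc-finger gene needed for growth after birth, was low throughout, at 11.2 and 9.26 CPM in MEF, 16.1 and 17.0 in CiLC, and 4.99 and 4.41 in LC. It rose 1.62-fold in CiLC (adjusted p = 8.26e-06) and was 2.17-fold lower in LC than in MEF (adjusted p = 1.85e-07).

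The growth-restraining members did not move as a block between MEF and CiLC. Cdkn1c encodes p57, an inhibitor of the cyclin-dependent kinases that drive the cell cycle. It was at 36.0 and 35.6 CPM in MEF, 48.5 and 47.6 in CiLC, and 1.74 and 1.71 in LC, the last from 30 and 29 reads. CiLC was 1.34-fold above MEF (log2 0.42 ± 0.0595 SE, adjusted p = 2.33e-06) and LC 20.7-fold below MEF (log2 -4.37 ± 0.117 SE, adjusted p = 9.93e-20). Ndn encodes necdin, a protein of the MAGE family that slows division and supports differentiation. At 58.8 and 57.5 CPM in MEF, 74.7 and 76.6 in CiLC, and 46.0 and 43.6 in LC, it had the narrowest range of the 10. It rose 1.3-fold in CiLC (adjusted p = 2.41e-06) and was 1.3-fold lower in LC than in MEF (log2 -0.37 ± 0.0582 SE, adjusted p = 4.88e-06).

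Grb10 encodes an adaptor protein that binds the insulin and IGF1 receptors and damps their signal. It was at 615 and 614 CPM in MEF, 358 and 370.1 in CiLC, and 197 and 192 in LC. It was the member that fell in CiLC, 1.69-fold below MEF (log2 -0.75 ± 0.0444 SE, adjusted p = 1.12e-12), so that CiLC lay between MEF and LC. In LC it was 3.15-fold lower than in MEF (log2 -1.66 ± 0.0465 SE, adjusted p = 2.27e-19), and CiLC was 1.87-fold above LC (adjusted p = 3.21e-14). The summed level of 6 macrophage markers had the same order, at 3210.5 to 3266 CPM in MEF, 2236 to 2239.6 in CiLC and 907 to 925 in LC; its part in the Grb10 result was not tested. The decrease of that sum from MEF to CiLC came mainly from Cx3cr1, C1qb and Csf1r, while Adgre1 rose 2.21-fold (adjusted p = 2.58e-15), Ptprc rose 1.23-fold (adjusted p = 1.23e-05) and Cd68 did not pass (adjusted p = 0.0507). Smooth muscle and peritubular markers went from a sum of 1153 to 1230.4 CPM in MEF to 108 to 112 in CiLC, with 483 to 490.3 in LC. Acta2 held most of each sum, with means of 1129.7, 101 and 427 CPM in MEF, CiLC and LC. Cnn1 and Myh11 were also lower in LC than in MEF, but Des was higher (28.7 against 10.6 CPM). Sertoli cell markers summed to 64.1 to 64.5 CPM in LC against at most 10.8 in the other groups. That sum in LC came mainly from Sox9 (mean 46.3 CPM) and Dhh (13.1), with Gata1 at 2.92 and Amh at 1.58. Fshr (0.349) and Rhox5 (0.0589) were too low to test. Endothelial markers summed to 68.1 to 76.2 CPM in LC against at most 23.7 in the other groups. The endothelial sum in LC came mainly from Cdh5, at 60.5 CPM against 3.58 in MEF. Pecam1 was also higher in LC than in MEF (1.37 against 0.47 CPM), but Kdr was lower (9.76 against 19.2 CPM). Tek was highest in CiLC, at 1.78 CPM. The adipocyte list of 4 genes rested almost wholly on Lpl, which encodes lipoprotein lipase, with an average of 189 CPM in MEF against 1771 in CiLC and 442 in LC. Adipoq, which defines fat cells, was at 0 in MEF and LC and at 0.229 CPM in CiLC. Plin1 was at 0 in MEF, 0.254 CPM in CiLC and 3.13 CPM in LC, and Fabp4 was at 3.73, 5.18 and 7.21 CPM. The part of these other cell types in the members' results was not tested.

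**Figure D2:**
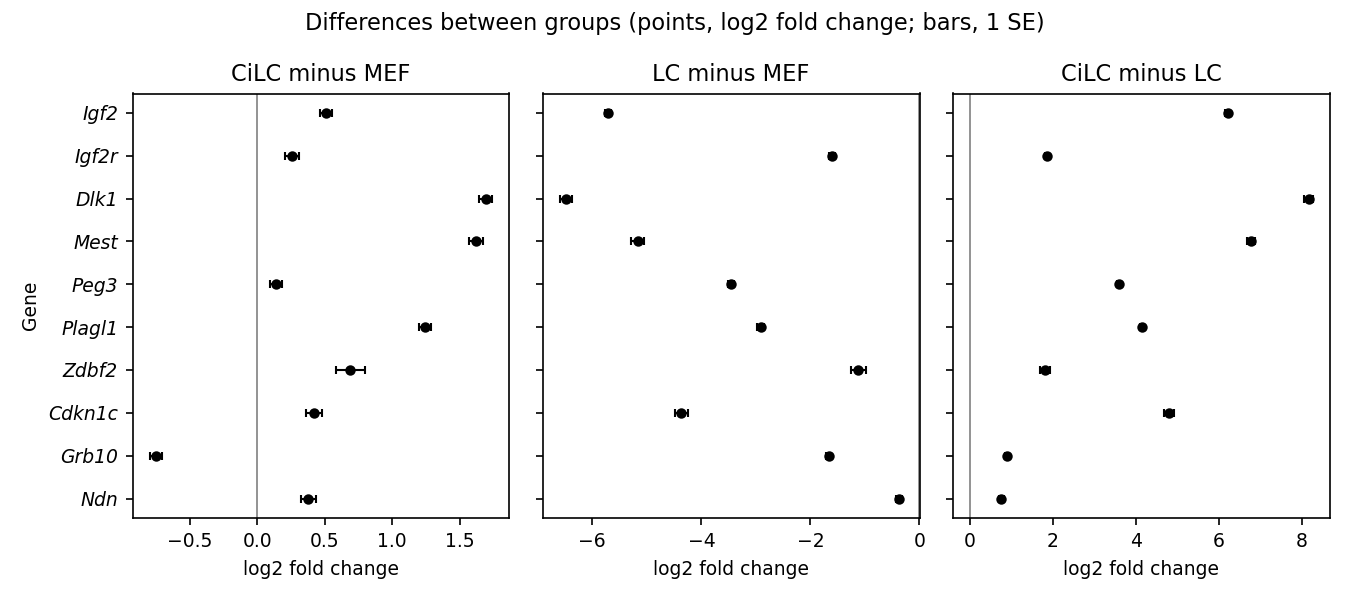
Fitted log2 fold changes of the 10 genes (points) with 1 SE (bars) for CiLC minus MEF, LC minus MEF and CiLC minus LC, each panel on its own axis. Grb10 alone lies below 0 in the first panel, at -0.75, all 10 lie below 0 in the second, and all 10 lie above 0 in the third.

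The size of the differences set some members further from the bulk of genes than others. For CiLC over MEF, 3 of 10 members, Dlk1, Mest and Plagl1, were higher by 2-fold or more, as were 6.23% of tested genes. The middle 90% of tested genes ran from log2 -1.21 to 1.4, and of the members only Dlk1 and Mest lay outside it; Plagl1 (1.24) and Grb10 (-0.75) lay inside, as did the others, at 0.14 to 0.69. For LC over MEF, 9 of 10 members were lower by 2-fold or more against 12.9% of tested genes, and 6 of 10 were lower by 4-fold or more against 5.66%. Those 6 were Dlk1, Igf2, Mest, Cdkn1c, Peg3 and Plagl1. Only 125 of the 14581 tested genes were lower than Dlk1 in LC, 163 lower than Igf2, 202 lower than Mest and 274 lower than Cdkn1c. For CiLC over LC, 8 of 10 members were higher by 2-fold or more, against 11.4% of tested genes. Ndn, at log2 -0.37 for LC over MEF, lay inside the middle of all genes, where the quartiles were -0.45 and 0.45.

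**Figure D3:**
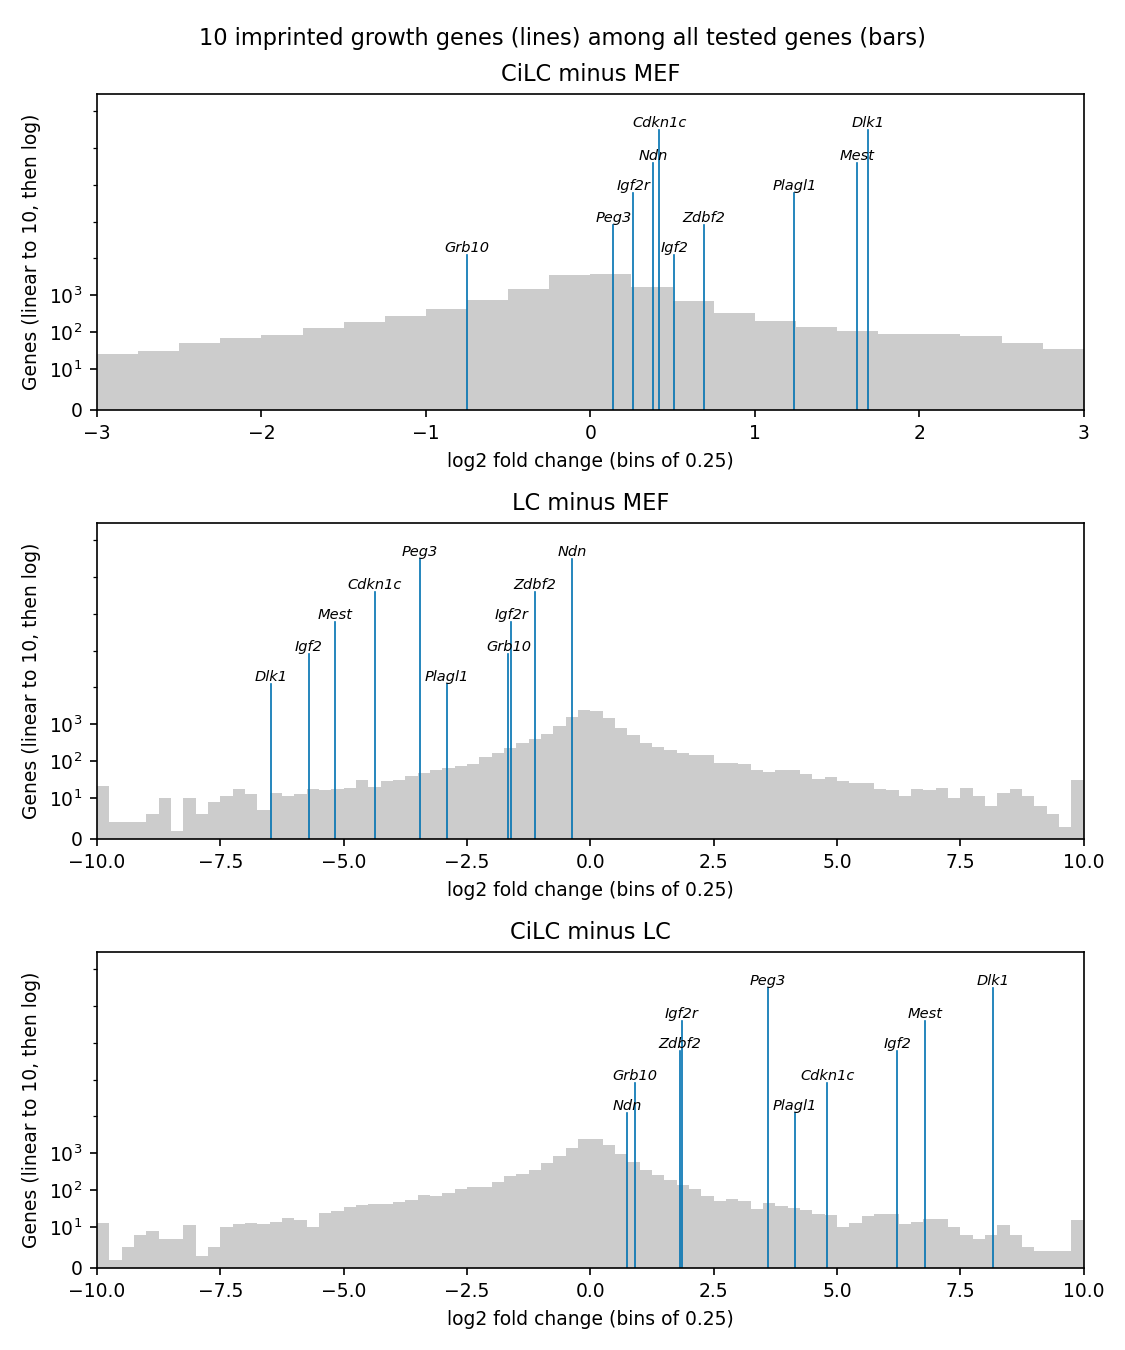
The 10 genes (blue lines, at heights chosen for legibility) on the distribution of log2 fold changes of all 14581 tested genes (grey bars, number of genes per bin of 0.25 on an axis linear to 10 and logarithmic above) for the 3 comparisons. The first panel shows only the span from -3 to 3, and in the others genes beyond -10 or 10 are counted in the outermost bars; Dlk1 lies farthest out in each panel, at 1.69, -6.48 and 8.17.

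Levels of different genes were set against each other only after division by transcript length, using the median length of each gene's coding transcripts in GENCODE release M21. Igf2 was the most abundant member per length in MEF, at 437 CPM per kb, and in CiLC, at 625 CPM per kb. It stayed first in both if its longest transcript was assumed (356 and 508 CPM per kb). The runner-up at the median length was Grb10 in MEF, at 125 CPM per kb, and Dlk1 in CiLC, at 237 CPM per kb. With its longest transcript Dlk1 would be at 86.6 CPM per kb in CiLC, below Igf2r (96.6) and Peg3 (88.1). In LC, Grb10 (39.7 CPM per kb) and Igf2r (26.7 CPM per kb) led, and Igf2 was at 8.37 CPM per kb. The place of Igf2 in LC depends on the transcript assumed, since its level ran from 6.81 to 49.4 CPM per kb between the longest and the shortest. Zdbf2 was lowest at the median length in each group, at 0.826, 1.34 and 0.38 CPM per kb in MEF, CiLC and LC, although Dlk1 would be lower in LC with its longest transcript (0.299 CPM per kb).

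Imprinted genes lie in clusters, and the listed neighbours of 4 members were followed to see whether the rest of a cluster moved with the member. Whether each neighbour was imprinted in these cells was not measured. In the Dlk1 cluster, Rtl1, a retrotransposon-derived gene of the placenta, was at 4.36 ± 0.494 CPM in MEF and 3.25 ± 0.135 CPM in CiLC (SD, n = 2), a difference that did not pass (log2 -0.42, adjusted p = 0.0665), while Dlk1 rose. Dio3, which encodes an enzyme that inactivates thyroid hormone, rose 2.78-fold with it in CiLC (log2 1.47, adjusted p = 1.64e-10). In LC, Rtl1 was lower than in MEF as Dlk1 was (log2 -3.04, adjusted p = 1.64e-09), but Dio3 was higher (log2 1.06, adjusted p = 6.64e-08). The 2 tested neighbours of Dlk1 thus differed from each other in both comparisons. Meg3, Rian and Mirg of the same cluster were absent from the counts, as was Kcnq1ot1 of the Cdkn1c cluster.

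In the Peg3 cluster all tested genes were lower in LC. Zim1, a zinc-finger gene transcribed from the maternal copy, was at 29.7 ± 0.922 CPM in MEF against 53.8 ± 1.82 in CiLC and 4.99 ± 0.0706 in LC (SD, n = 2). It rose in CiLC (log2 0.85, adjusted p = 4.47e-11) by more than Peg3 and was lower in LC (log2 -2.57, adjusted p = 1.01e-16). Usp29, a deubiquitinase gene that shares the Peg3 promoter region, did not pass between CiLC and MEF (log2 -0.06, adjusted p = 0.883) and was lower in LC (log2 -3.05, adjusted p = 2.28e-06), at 1.99 CPM in MEF and 0.237 in LC.

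In the Ndn cluster, 5 neighbours were tested and moved in no common direction. Ube3a, a ubiquitin ligase gene, rose in CiLC (log2 0.53, adjusted p = 8.18e-08), as Ndn did, and Atp10a, a lipid flippase gene, fell (log2 -1.44, adjusted p = 2.29e-14), from 42.7 ± 0.672 to 15.7 ± 0.0655 CPM (SD, n = 2). Snrpn, which encodes a splicing protein, was called lower in CiLC (log2 -0.28, adjusted p = 0.0314), but not without CiLC replicate 2 (adjusted p = 0.221) or MEF replicate 1 (0.202), with scaling by total counts (0.0999), with no filter (0.0581) or with DESeq2 (0.201). Peg12 and Mkrn3 did not pass. Between LC and MEF, Snrpn was lower (log2 -0.42, adjusted p = 0.00176), and Ube3a did not pass. Atp10a was called higher in LC (log2 0.18, adjusted p = 0.00986), but not with scaling by total counts (log2 0.03, adjusted p = 0.671) or upper quartile factors (log2 0.08, adjusted p = 0.25), with DESeq2 (adjusted p = 0.0978), or without MEF replicate 2 (0.0513) or LC replicate 1 (0.0593). Mkrn3 was also called higher, from fewer than 1 CPM in every library, and lost that call under most alternatives.

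In the Cdkn1c cluster, 7 neighbours were tested between CiLC and MEF, and 5 fell while Cdkn1c rose. Over all tested genes 25.5% fell. The neighbours that fell were Tssc4 (log2 -0.77, adjusted p = 3.97e-10), Osbpl5 (log2 -0.63), Tspan32 (log2 -1.2, adjusted p = 0.00168), Cd81 (log2 -0.17) and Slc22a18 (log2 -0.73, adjusted p = 0.0244). The call for Slc22a18, a membrane transporter gene, was lost without CiLC replicate 1 (adjusted p = 0.0572), CiLC replicate 2 (0.151) or MEF replicate 2 (0.412), with no filter (0.0604) and with DESeq2 (0.175). The call for Cd81 was lost with scaling by total counts (adjusted p = 0.0549). In LC, Slc22a18 was the neighbour with the greatest difference, lower than MEF at 0.204 against 3.21 CPM (log2 -3.93, adjusted p = 2.27e-08), beside log2 -4.37 for Cdkn1c. Tssc4, Osbpl5 and Tspan32 were lower in LC by less, and Cd81 did not pass. Nap1l4 was called higher (log2 0.24, adjusted p = 0.000376), but not with scaling by total counts (log2 0.09, adjusted p = 0.133). Ascl2, a transcription factor gene of the placenta, was also called higher, at 1.67 CPM in LC against 0.236 in MEF. Its log2 difference ran from 1.8 to 7.95 as single libraries were left out, and the call was lost with DESeq2 (adjusted p = 0.0949).

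**Figure D4:**
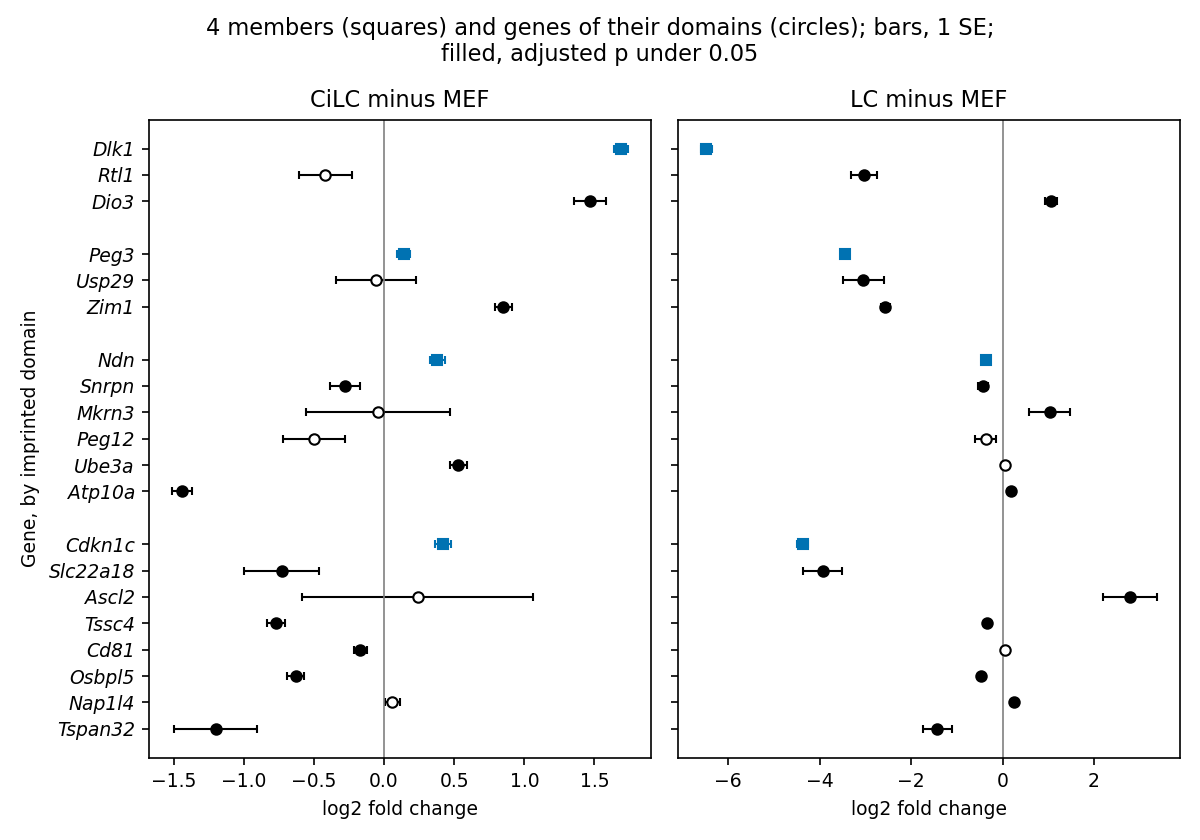
Fitted log2 fold changes with 1 SE for Dlk1, Peg3, Ndn and Cdkn1c (blue squares) and the tested genes of their imprinted clusters (circles, filled where the adjusted p was under 0.05), CiLC minus MEF at left and LC minus MEF at right. In the left panel 5 neighbours of Cdkn1c lie below 0 and Cdkn1c above it.

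The other listed imprinted genes did not share the members' common direction. Members and lists were chosen with earlier results of these data known, so this contrast only describes the lists. Of 23 other genes known to be transcribed from the paternal copy, 16 were tested, and 6 were higher, 2 lower and 8 not called in CiLC against MEF (median log2 0.02). In LC against MEF 5 were higher, 8 lower and 3 not called (median -0.29). Of 26 genes known to be transcribed from the maternal copy in at least some tissues, 15 were tested. In CiLC against MEF 3 were higher, 7 lower and 5 not called (median -0.08), and in LC against MEF 6 were higher and 6 lower (median 0.05). Over all tested genes, 26.1% were higher and 25.5% lower in CiLC against MEF. The shares in LC against MEF were 35.7% and 35%.

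Peg10, a retrotransposon-derived gene needed by the placenta, ran opposite to the members between LC and MEF. It was at 13 ± 0.747 CPM in MEF, with 23.9 ± 1.7 in CiLC and 93.1 ± 0.746 in LC (SD, n = 2), higher in LC than in MEF (log2 2.84, adjusted p = 1.69e-20). It also rose in CiLC (log2 0.88, adjusted p = 5.54e-09), so CiLC lay between MEF and LC. Nnat, a small membrane protein gene of developing brain and fat, had the members' usual order, at 4.96 CPM in MEF against 14.5 in CiLC and 3.21 in LC (log2 1.54 for CiLC over MEF, adjusted p = 1.63e-10). Nap1l5 had the greatest difference between CiLC and LC among the paternal genes (log2 3.13, adjusted p = 9.54e-11), at 4.02 CPM in MEF against 5.69 in CiLC and 0.643 in LC. Tfpi2, a protease inhibitor gene, was at 0.731 CPM in MEF, with 0.127 in CiLC and 6.54 in LC.

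Around Igf2 and Igf2r, the 15 listed genes of the IGF system were split. In CiLC against MEF 6 rose, 7 fell and 2 were not called (median log2 -0.10), and in LC against MEF 4 were higher, 9 lower and 2 not called (median -0.36). Over all tested genes 26.1% rose and 25.5% fell in CiLC, and 35.7% were higher and 35% lower in LC. Igf1, the related growth factor gene that is not imprinted, was at 524 ± 26.4 CPM in MEF against 1113 ± 27.5 in CiLC and 409.9 ± 16.6 in LC (SD, n = 2). It rose in CiLC by more than Igf2 did (log2 1.09, adjusted p = 6.82e-15, beside 0.51), and it was lower in LC by far less (log2 -0.36 beside -5.71). Igf1r, the signalling receptor gene, fell slightly in CiLC (log2 -0.23, adjusted p = 0.000415) and Insr, the insulin receptor gene, did not pass (log2 0.10, adjusted p = 0.0819). M6pr, the smaller mannose 6-phosphate receptor and so a functional relative of Igf2r, rose in CiLC as Igf2r did (log2 0.26, adjusted p = 9.53e-05) but did not pass between LC and MEF (log2 0.07, adjusted p = 0.186, and below 0 when libraries were scaled by total counts).

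Igf2bp1, a fetal RNA-binding protein gene named for binding the Igf2 transcript, matched Igf2 in LC but not in CiLC. It was at 40.7 ± 0.241 CPM in MEF, with 37.8 ± 1.49 in CiLC and 0.818 ± 0.0914 in LC (SD, n = 2). The level in LC was lower than in MEF (log2 -5.62, adjusted p = 1.41e-20), and CiLC against MEF did not pass (log2 -0.10, adjusted p = 0.172). Among the binding proteins, Igfbp6 had the greatest rise in CiLC (log2 2.14, adjusted p = 3.78e-17), from 17.0 to 74.8 CPM beside 68.0 in LC. Igfbp2 had the greatest fall (log2 -1.26, adjusted p = 1.4e-14), from 173 to 72.4 CPM beside 173 in LC. Igfbp7 was higher in LC, at 1463 CPM against 210.4 in MEF and 271 in CiLC.

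Relatives of the members by protein family mostly did not copy them. Plag1, the relative of Plagl1, had the same order as Plagl1 over a narrower range, at 27.3 ± 2.29 CPM in MEF against 34.9 ± 1.66 in CiLC and 6.11 ± 0.111 in LC (SD, n = 2). Plagl2, the other relative of Plagl1, was lower in LC than in MEF (log2 -1.22, adjusted p = 7.04e-15). It was called lower in CiLC (log2 -0.16, adjusted p = 0.0154), a call lost with scaling by total counts (adjusted p = 0.151), with DESeq2 (0.0837) and without CiLC replicate 1 (0.0719), CiLC replicate 2 (0.0786) or MEF replicate 2 (0.181). Grb14, the adaptor closest to Grb10, ran the other way, at 8.28 ± 0.669 CPM in MEF, with 39.5 ± 1.21 in CiLC and 69.6 ± 0.496 in LC; it rose in CiLC (log2 2.25, adjusted p = 1.36e-16) where Grb10 fell. Grb2, a more distant adaptor gene, fell in CiLC as Grb10 did, by less (log2 -0.28, adjusted p = 3.29e-05). Cdkn1a and Cdkn1b, which encode the p21 and p27 inhibitors related to p57, changed little beside Cdkn1c. Cdkn1a was lower in LC than in MEF (log2 -1.0, adjusted p = 6.81e-15) and in CiLC (log2 -0.19, adjusted p = 0.00144), and Cdkn1b was higher in CiLC (log2 0.27, adjusted p = 0.000828). Maged1, a MAGE relative of Ndn, did not pass between CiLC and MEF (log2 0.03, adjusted p = 0.636) and was higher in LC (log2 0.58), and Maged2 likewise did not pass (log2 -0.03, adjusted p = 0.691) and was higher in LC (log2 0.96). Dlk2, the relative of Dlk1, was read near 1 CPM or less, with means of 0.261 in MEF, 0.152 in CiLC and the highest, 1.29, in LC.

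Listed next were 17 genes that lay down, keep or remove DNA methylation and imprints. Of these, 3 rose, 10 fell and 4 were not called in CiLC against MEF (median log2 -0.21). In LC against MEF 4 were higher and 12 lower (median -0.34). Over all tested genes 26.1% rose and 25.5% fell in CiLC, and 35.7% were higher and 35% lower in LC. Of the genes linked to removal of methylation, Tet1 rose in CiLC (log2 0.59, adjusted p = 7.41e-05). Tet2 was called higher by less (log2 0.16, adjusted p = 0.0278), and Tet3 fell (log2 -0.21, adjusted p = 0.00459). In LC against MEF, Tet1 (log2 -1.21) and Tet3 (log2 -0.72) were lower and Tet2 was called higher (log2 0.17, adjusted p = 0.0155). The Tet genes were not followed under the alternative settings. Uhrf1, which brings the maintenance methyltransferase to replicating DNA, fell most in CiLC (log2 -0.86, adjusted p = 1.49e-10), from 42.9 ± 1.37 to 23.5 ± 0.84 CPM, with 17.5 ± 0.64 in LC (SD, n = 2). Zfp57, whose protein reads the hexamer marked in the printed windows and which was named after its values were seen, fell in CiLC (log2 -0.63, adjusted p = 2.42e-06) and was higher in LC than in MEF (log2 0.74, adjusted p = 9.26e-09), at 20.4, 13.2 and 34.1 CPM in MEF, CiLC and LC. Dnmt3l, a germ-cell cofactor of the methyltransferases, was at 0.157 CPM in MEF against 0.229 in CiLC and 8.44 in LC (log2 5.69 for LC over MEF, adjusted p = 1.91e-13). Dppa3 had 15 reads in MEF and 24 in CiLC but 0 in LC, which makes it at least 4.47-fold higher in MEF and at least 6.96-fold higher in CiLC when LC is set at a floor of 3 reads over the group.

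The genes whose pattern over the 6 libraries lay nearest to each member were found by the distance between log2(CPM + 0.5) values centred on each gene's mean, among genes of at least 10 CPM on average. For Dlk1 they were Gdf10 (distance 0.21), Thy1 (0.757) and Tbx15 (1.12), of which Gdf10, a secreted factor of the BMP family, was at 36.5 CPM in MEF, with 120.4 in CiLC and 0.0294 in LC. Mest lay nearest to Edil3 (0.245) and Cttnbp2 (0.305), and Igf2 lay near Shox2 (0.243) and Cdo1 (0.566).

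Plagl1 lay nearest to Col28a1 (0.287), Abi3bp (0.391) and Clec14a (0.391), and Cdkn1c to Serpine2 (0.327), AW551984 (0.355) and Fibin (0.389). For Peg3 they were Mrc1 (0.157), Fat4 (0.228) and Epha4 (0.255), for Zdbf2 Gli2 (0.172), Lcorl (0.218) and Nceh1 (0.247), and for Igf2r Nfam1 (0.167), Mpp1 (0.184) and Slc16a10 (0.188). Mrc1, the macrophage mannose receptor gene, was at 522 CPM in MEF against 622 in CiLC and 46.8 in LC. The nearest genes to Grb10 were Plcb2 (0.0595), Racgap1 (0.108) and Cd72 (0.11), and those to Ndn were Dennd4c (0.0858), Magt1 (0.087) and Ifngr1 (0.0883).

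Among the members themselves the nearest pair was Igf2r and Zdbf2, at a distance of 0.666. Dlk1 was nearest to Mest (1.55), as was Igf2 (1.21), and Grb10 was nearest to Igf2r (1.15). These distances describe 6 libraries from 3 groups and depend mainly on the 3 group means.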

How the data were processed

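The tables the authors deposited hold expected counts (estimated reads per gene), per the file headers. The authors aligned reads with HISAT to mouse build mm9, per the submitters' processing notes; no source used here gives the aligner version, the counting tool, the annotation or the strand setting. Values that were not whole made up 32.4% to 32.8% of each table. Of 18305 NCBI gene numbers, 18179 matched a mouse symbol and 126 did not. Groups and replicate numbers came from the sample titles.

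Counts were rounded to whole numbers. Tests used edgeR 4.0.16, under R 4.3.3 (TMM scaling, quasi-likelihood test, all 6 libraries in 1 fit). Its filter kept 14581 genes and removed 3724. CPM use the scaled library sizes (factors 0.916 to 1.069). The fit was tested on simulated data. All members were named in every comparison. Of the other lists, genes of a member's cluster, ligand-receptor pair or family were named, with each list's highest and lowest. The 3 nearest genes by pattern were found for each member and named, except where an item is not reported here. The members and lists were chosen with earlier results of these data known. Alternatives were other scalings, filters and rounding, DESeq2 1.42.0, a replicate block, assumed coefficients of variation of 0.1 and 0.4, and leaving out each library.

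No label states that the libraries of 1 group were separate cultures or animals. The p-values therefore measure only how far these libraries differ, and that spread may be technical. Between replicates, chi-square per degree of freedom was 2.77 in MEF, 1.8 in CiLC and 2.94 in LC, so they differed by more than counting noise.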

Additional observations from a re-analysis of the deposited data

How the results depend on the processing

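Of 510 values of the members under 17 alternatives, 492 kept their direction and their side of the threshold, 18 lost the call and 0 reversed. With an assumed coefficient of variation of 0.4, 0 members were called between CiLC and MEF (adjusted p 0.0808 for Dlk1, 0.105 for Mest and 0.389 for Plagl1), Zdbf2 and Ndn lost their calls between LC and MEF, and Grb10 and Ndn theirs between CiLC and LC. With 0.1, Igf2r (adjusted p = 0.19) and Peg3 (adjusted p = 0.522) lost theirs between CiLC and MEF. Over all genes, the calls between CiLC and MEF went from 7529 to 4205 at 0.1 and 675 at 0.4. At 0.4 they were 2508 between LC and MEF and 2251 between CiLC and LC. Leaving out single libraries gave 6127 to 7437, 9411 to 10314 and 9333 to 10488 calls in the 3 comparisons, and 9 to 10 members called between CiLC and MEF. Scaling by total counts moved the share of calls that were higher from 50.6% to 61.1% (CiLC against MEF), from 50.5% to 38.7% (LC against MEF) and from 49.6% to 66.3% (CiLC against LC), with medians of all genes at 0.072, -0.156 and 0.219. No member changed direction under it.

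The differences between replicates correlated at 0.12 for MEF and CiLC, 0.09 for MEF and LC, and -0.11 for CiLC and LC. These weak correlations cannot decide whether same-numbered libraries were paired, because the differences also hold counting noise. The replicate block gave 7505, 10294 and 10290 calls and changed no member's call.

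Of 1540 values of 41 other genes under the alternatives, 1405 stayed the same, 110 lost the call, 7 gained it and 18 reversed. With an assumed coefficient of variation of 0.1, the lost calls between CiLC and MEF included M6pr (adjusted p = 0.186), Igf1r (0.25) and Grb2 (0.159). Cdkn1a (0.369), Cdkn1b (0.192) and Plag1 (0.0744) were also lost. Signs turned for some neighbouring and related genes near 0. With total counts, CiLC over MEF became 0.01 for Usp29, 0.03 for Mkrn3 and 0.04 for Maged2, and LC over MEF became -0.09 for Ube3a, -0.10 for Cd81 and -0.07 for M6pr. With upper quartile factors the last 3 were -0.04, -0.05 and -0.03. Leaving out single libraries gave, for CiLC over MEF, -0.34 to 0.28 for Usp29, -0.45 to 0.53 for Mkrn3, -0.74 to 5.41 for Ascl2, -0.08 to 0.01 for Maged2 and -0.04 to 1.08 for Dnmt3l, and for LC over MEF 0.08 for Igfbp2 without LC replicate 2. Depth limits Dlk1, Mest and Cdkn1c in LC, which rest on about 20 to 30 reads a library.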

Other observations

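Several imprinted genes of the lists were too low to test. Klf14, a transcription factor gene transcribed from the maternal copy and named after its values were seen, had 12 and 7 reads in the CiLC libraries and 0 reads in each MEF and LC library. Calcr, the calcitonin receptor gene, was at 0 in MEF and CiLC and at 0.67 ± 0.282 CPM in LC (SD, n = 2).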
